A study of Saccharomyces cerevisiae with 22 samples.

Results

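The genes described here encode the proteins of the cytosolic ribosome of budding yeast. They were chosen by name alone, as every row whose standard symbol is RPL or RPS followed by a number, with or without the paralog letter A or B, or is RPP0, RPP1A, RPP1B, RPP2A or RPP2B. Of 6242 genes with a row on the arrays, 134 were members, 79 of the large and 55 of the small subunit. The annotation used for names holds 137 such genes, and RPL29, RPL36B and RPS14A were not analysed here. The members include 57 paralog pairs with both copies on the array, 18 genes without a paralog letter and 2 lettered genes whose partner has no row. A value was present on all 22 arrays for 113 of them.

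Ribosomal proteins bind the ribosomal RNAs and build the small subunit, which decodes the messenger, and the large subunit, which joins amino acids. Most of them are made from a pair of paralogous genes in yeast, a remnant of an ancient genome duplication. In this organism their transcription is driven by Rap1, Fhl1, Ifh1 and Sfp1 under the TOR and protein kinase A pathways, and it follows nutrient supply and growth rate closely. RNA levels of these genes are therefore a common reading of growth state.

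Yeast was grown in 3 chemostats, vessels fed with fresh medium at a steady rate, and moved from galactose to glucose. The 3AT40mM chemostat held 40 mM 3AT (3-amino-1,2,4-triazole, an inhibitor of the histidine enzyme His3), and the no3AT2 and no3AT chemostats held none. The labels name no strain or genotype. On each array the RNA of a culture, labelled with Cy5, was set against a common pool of glucose and galactose RNA, labelled with Cy3, so a value is a log2 ratio to that pool. In 3AT40mM the arrays were galactose steady state at 477 and 522 h, early glucose at 552 and 574 h, later glucose at 592, 850 and 878 h and glucose steady state at 937 h. In no3AT2 they were galactose steady state with no hour given, early glucose at 315 and 328 h and glucose steady state on 3 arrays with no hours. In no3AT they were galactose steady state at 305 and 316 h, early glucose at 344 and 353 h, later glucose at 385 and 478 h and glucose steady state at 507 and 526 h. The labels give polyA RNA for no3AT2 and total RNA for the other chemostats, so the RNA type and the chemostat cannot be told apart. Early glucose stands here for the 2 lowest labelled hours in glucose. The arrays of one chemostat come from a single culture. A p-value within a chemostat measures only the spread between arrays of one culture and phase, pooled over the 3 chemostats. That spread may be technical and, where the arrays differ in hour, may also hold change over time. No log base is given with the deposited ratios. It was taken as 2.

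Some arrays stood apart before any ribosomal gene was considered. Over all genes, the lowest correlation between arrays was -0.44, for 3AT40mM at 592 h with no3AT2 in galactose. The direction of the ratios was kept, since the labels give the same dyes on every array. The 3AT40mM array labelled glucose at 552 h correlated at 0.87 with the galactose array at 522 h, the highest value of all 231 pairs of arrays, and at -0.20 with the other early glucose array at 574 h. At 552 h only 0.0501% of all genes stood over 2-fold above the galactose mean of the chemostat and 0.0334% below it. The counts, medians and leading members that change most without it are given without it as well.

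The ribosomal protein genes had a median above that of all genes on every array but no3AT2 at 315 h. Their median log2 ratio, after each array was centred on the median of all genes, lay between -0.39 and 1.94 over the 22 arrays, with a median of 0.64. Between arrays of one chemostat and phase it varied with a pooled SD of 0.31 (n = 20 arrays in 9 groups). The share of members above 0 lay between 28.7% and 99.2%, beside 49.9% to 50.2% of all genes. The medians of large and small subunit genes differed by -0.14 to 0.19 on the log2 scale on each array, and this difference was not tested. Averaged over arrays, 132 of 134 members stood above 0 and only RPL43B (-0.08) and RPL41B (-0.23) below it. The share of all genes with an average above 0 is not given here, so this count lacks a background. With the same dyes on every array, an effect of the dye on a gene and its level against the pool cannot be told apart.

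In the 3AT40mM chemostat the median was 0.23 and 0.35 in galactose, 0.37 at 552 h and 1.56 at 574 h, then 0.89, 0.90 and 0.65 at 592, 850 and 878 h and 0.19 at glucose steady state. In no3AT2 it was 0.63 in galactose, -0.39 and 0.03 at 315 and 328 h, and 0.76, 0.81 and 0.54 on the 3 arrays of glucose steady state. In no3AT it was 0.86 and 1.36 in galactose, 1.68 and 1.94 at 344 and 353 h, then 0.26 and 0.52 at 385 and 478 h and 0.52 and 0.72 at glucose steady state. The highest median thus lay at 574 h in 3AT40mM and at 344 and 353 h in no3AT, and both early arrays of no3AT2 lay below every other array of that chemostat. In bulk RNA set on a median of all genes, a higher share of ribosomal messengers and a lower share of the rest cannot be told apart.

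**Figure D1:**
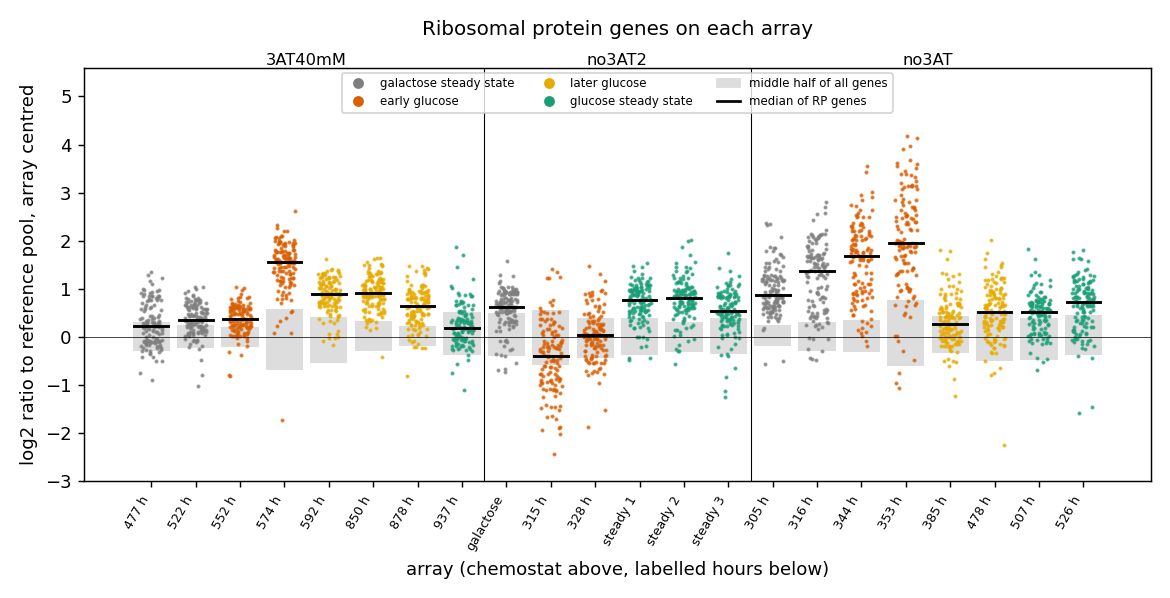
Log2 ratio to the reference pool of each ribosomal protein gene (points) on each of the 22 arrays, with the median of the members (black line) and the range between the quartiles of all genes (grey box). The members' median is highest at no3AT 353 h (1.94) and lowest at no3AT2 315 h (-0.39), the only array where it is below 0.

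The ends of the distribution were not held by the same gene on every array. The highest member was RPL2A, of the large subunit core, at no3AT 353 h, with 4.17. RPL31A was highest at no3AT 316 h (2.80) and 344 h (3.55), RPL8B at 3AT40mM 574 h (2.63) and 592 h (1.63), and RPL28 at 850 h (1.63) and 878 h (1.48). RPL9A led on 3 arrays of no3AT2, at 315 h (1.41), at 328 h (1.47) and on the glucose steady state array numbered 1 (1.54). RPS22B was highest at 3AT40mM 937 h, with 1.86. In the same chemostat RPS17B led at 552 h (1.04) and RPL42B at 477 h (1.34).

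The lowest member varied between arrays as well. RPL43B was lowest at no3AT 316 h (-0.48) and 353 h (-1.07) and on the no3AT2 steady state array numbered 2 (-0.58), and RPL41B at no3AT 344 h (-0.20) and at 3AT40mM 522 h (-1.03) and 552 h (-0.82). RPL4B was lowest at 3AT40mM 937 h (-1.10), at no3AT2 328 h (-1.89) and on the steady state array numbered 3 (-1.25). RPL3, which reaches close to the catalytic centre of the large subunit, was lowest at no3AT2 315 h (-2.44) and at 3AT40mM 878 h (-0.82). RPL10, which joins the large subunit late and in the cytoplasm, was lowest at no3AT 305 h (-0.57) and 3AT40mM 477 h (-0.89).

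**Figure D2:**
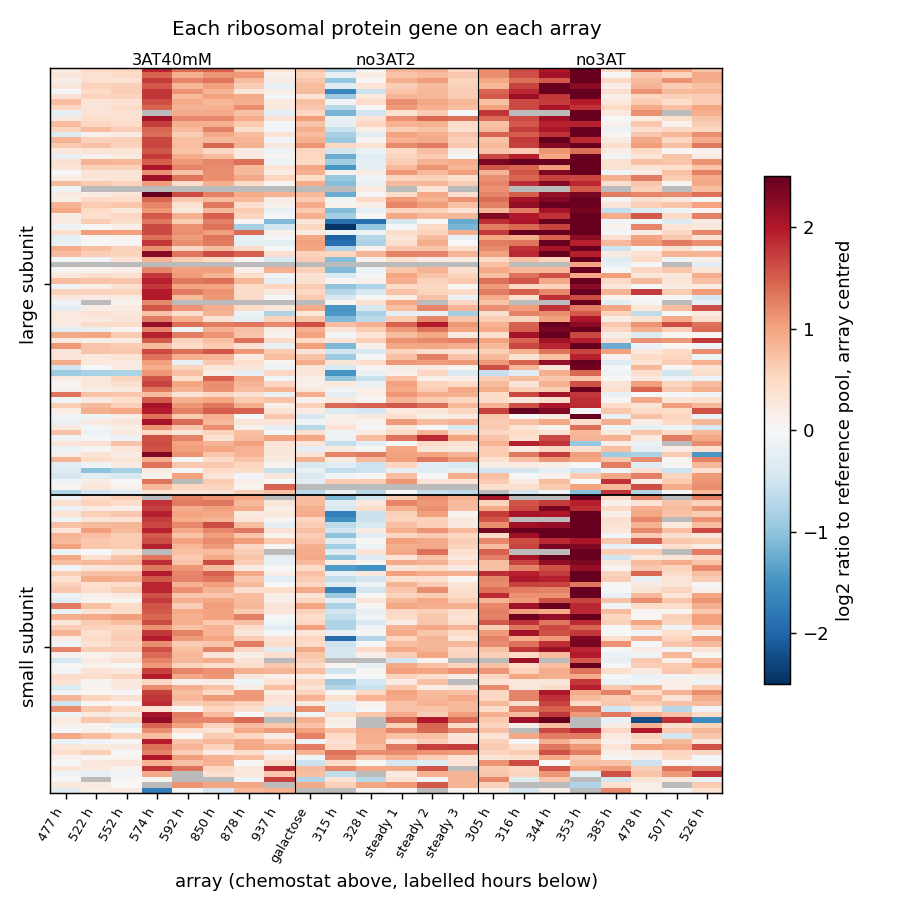
Log2 ratio to the reference pool (colour) of each of the 134 ribosomal protein genes (rows, large subunit above and small subunit below) on the 22 arrays (columns). Grey marks a missing value. The columns of 3AT40mM 574 h and of no3AT 344 and 353 h are red over most rows in both subunits, and the no3AT2 315 h column is blue over most rows, with 28.7% of its members above 0.

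Steady growth in glucose was next set against galactose and against early glucose, with the 3 chemostats as the units. They differ in 3AT and in RNA type, so the spread between them holds these differences too. A count of 0 over 3 chemostats does not show that cultures of one kind did not change. A gene was tested if it had a value on 80% or more of the arrays and in each combination of chemostat and phase, which held for 124 members (75 large, 49 small) of 4783 genes. The 10 members with too few values included RPL16B, RPL31B, RPL33A, RPP2A, RPS12, RPS23B, RPS30A, RPS31 and RPS9A. Over 3 chemostats almost no member passed an adjusted p of 0.05.

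In early glucose against galactose 0 of 124 members passed limma's test, beside 0.251% of all genes that rose and 6.86% that fell. Without adjustment, 6 members had a p under 0.05, beside 23.3% of all genes. The members' median change was 0.19 on the log2 scale, with 93 above 0, and that of all genes tested 0.02. Without 3AT40mM at 552 h the members' median was 0.36, and without 574 h it was -0.0027. The count was 2 without no3AT at 305 h, beside 1.28% of all genes that rose, and 1 without no3AT2 at 315 h, beside 0.977%. By chemostat the members' median changes were 0.65 in 3AT40mM, -0.81 in no3AT2 and 0.71 in no3AT. Counts of members with one sign in all 3 chemostats are given here and below without the share of all genes, so they lack a background. Of the 124, 15 were above 0 and 0 below 0 in all 3 chemostats. The 5 largest of them were RPL18B with 0.89 (SE 0.31), RPS27B with 0.80 (SE 0.28), RPL19B with 0.79 (SE 0.35), RPS10B with 0.78 (SE 0.27) and RPS3, at the messenger entry of the small subunit, with 0.77 (SE 0.30). Their adjusted p lay between 0.0956 for RPS10B and 0.180 for RPL19B. Single arrays moved each of these values by over 1.5 times. Without 3AT40mM at 574 h they were 0.48 for RPS27B, 0.44 for RPL19B, 0.45 for RPS10B and 0.46 for RPS3, and without no3AT at 353 h RPL18B was 0.46. Without 3AT40mM at 552 h RPL18B was 1.09, RPS27B 1.12, RPL19B 1.14, RPS10B 1.10 and RPS3 1.08. When the median of nearby rows of the deposited table was subtracted on each array (neighbour-corrected values), RPL18B was 0.32. By chemostat, RPL18B changed by 0.85 in 3AT40mM, 0.61 in no3AT2 and 1.20 in no3AT without passing.

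In glucose steady state against galactose 1 of 124 members rose and 0 fell, beside 4.54% and 13% of all genes. The members with an unadjusted p under 0.05 numbered 7, beside 34.6% of all genes. The member that rose was RPS22B, of the small subunit, with a log2 change of 0.92 (SE 0.29, limma adjusted p = 0.0431). It stood at 1.86 in 3AT40mM at glucose steady state, against 0.30 and 0.24 in galactose. In no3AT2 it was 0.94 and 1.56 at glucose steady state, with a missing value on the third array, against 0.81 in galactose. In no3AT it was 1.35 and 1.29 at glucose steady state, against 0.65 and 0.52 in galactose. The steady state arrays were above galactose in each chemostat, by most in 3AT40mM. Without that chemostat the change was 0.59 and no longer passed, neighbour-corrected it was 0.59 (adjusted p = 0.172), and its paralog RPS22A did not pass. No member passed without no3AT at 316, 344 or 507 h, without 3AT40mM at 552, 574 or 937 h, or without the no3AT2 array in galactose, at 328 h or at steady state numbered 2. There were 2 without no3AT at 305 or 353 h or no3AT2 at 315 h, beside 8.01%, 6.42% and 8.56% of all genes that rose.

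The members' median in that comparison was -0.19, with 83 of 124 below 0, and 0.02 over all genes tested. Of the members, 19 were above 0 and 37 below 0 in all 3 chemostats. RPL43B stood at 0.83 (adjusted p = 0.0668), RPL38 at 0.70, RPL30, whose protein binds and represses the splicing of its own transcript, at 0.67 (adjusted p = 0.0884) and RPS28B at 0.56. In the other direction RPL4B stood at -1.46 (SE 0.57, adjusted p = 0.0884), RPS21B at -0.96, RPS11A at -0.89, RPS9B at -0.85 and RPL13A at -0.82. None of these 9 passed the limma test. Neighbour-corrected, RPL43B was 0.11 and RPS21B turned to 0.10. The change of RPL4B was -1.54 in 3AT40mM, -0.85 in no3AT2 and -2.00 in no3AT. The 2 genes of one pair lay on opposite sides for RPS21, with RPS21A above 0 in no3AT (0.82) and RPS21B at -1.28 there.

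In glucose steady state against early glucose 0 of 124 members passed, beside 0 of 4783 genes. At an unadjusted p under 0.05 there were 9 members, beside 7.19% of all genes. The members' median was -0.36, with 101 of 124 below 0. It was -0.57 without 3AT40mM at 552 h and -0.19 without 574 h. The medians by chemostat were -0.78 in 3AT40mM, 0.86 in no3AT2 and -1.21 in no3AT. Only 5 members were above 0 in all 3 chemostats, led by RPS21A with 0.87 (SE 0.34), and 8 were below 0 in all of them, led by RPL19B with -1.04 (SE 0.35) and RPL9A with -0.80 (SE 0.30). RPL43B (0.57), RPL30 (0.49), RPS28B (0.38) and RPS22B (0.37) made up the 5, and RPL7B (-0.68), RPS22A (-0.59) and RPS29B (-0.57) followed among the 8. Neighbour-corrected, RPL43B turned to -0.0835 and RPS22B to -0.0099, and without 3AT40mM at 937 h RPS22B was 0.0723. Without 552 h RPL19B was -1.39 and RPL9A -1.04, and without 574 h RPL19B was -0.69. All of the 10 had adjusted p of 0.675 or more with every array.

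The no3AT chemostat gave the largest set of calls. There 24 of 124 members fell and 0 rose at glucose steady state against early glucose, 15 of the large and 9 of the small subunit, beside 1.02% of all genes that fell. Members thus made up 24 of the 49 genes that fell in this comparison. The members' median change was -1.21, with 114 of 124 below 0, and that of all genes -0.11. With quantile normalization in place of centring 0 members fell, beside 0 of all genes, and the median was -0.70. Without adjustment, 83 members had a p under 0.05, beside 14.4% of all genes. Of 120 members with a value on all 4 arrays, 93 had both steady state arrays below both early ones, beside 21.4% of all genes.

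RPL4B, a protein of the nascent chain tunnel of the large subunit, stood at -0.33 and 0.20 at steady state, against 2.85 and 3.08 in early glucose, a log2 change of -3.03 (SE 0.44, limma adjusted p = 0.0054). RPL32, a single-copy gene, stood at 0.27 and -0.01 at steady state, against 2.31 and 3.61 in early glucose, a change of -2.83 (SE 0.46, adjusted p = 0.0090). In both genes the steady state arrays lay below both early arrays by more than they differed among themselves.

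RPS18A, of the small subunit head, stood at 0.40 and 0.29 at steady state, against 2.64 and 3.19 in early glucose, a change of -2.57 (SE 0.47, adjusted p = 0.0129). RPL20A stood at 0.79 and 0.83, against 2.73 and 3.96, a change of -2.53 (SE 0.48, adjusted p = 0.0157). Outside the 5 largest, the members that fell lay between -2.45 for RPS11A and -1.60 for RPP1B. At the other end, RPS21A had a change of 1.04 and RPL43B of 0.97, and neither passed.

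The count moved when single arrays were left out. Without the early array at 353 h, 0 members passed and the median change was -1.01. Without the array at 344 h, 51 fell and 2 rose, beside 7.82% and 2.77% of all genes, with a median of -1.52. The count of falls was 13 without steady state at 507 h, beside 1.41% of all genes, and 3 without 526 h, beside 0.0645%. Arrays of the other chemostats share the estimate of the spread. The count was 45 without 3AT40mM at 552 h, beside 2.5% of all genes, and 46 without 574 h, beside 2.53%. It was 12 without either 3AT40mM galactose array, beside 0.46% each time, and 12, 13 or 12 without a no3AT2 steady state array, beside 0.483%, 0.527% and 0.481%.

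In no3AT2 the same comparison ran the other way, with 2 of 124 members that rose and 0 that fell, beside 0.627% of all genes that rose. The members' median change was 0.86, with 115 above 0, and 63 members had an unadjusted p under 0.05, beside 12.5% of all genes. Of 123 members with all values, 100 had all 3 steady state arrays above both early ones, beside 19.2% of all genes. RPS27A, of the small subunit, stood at 0.33, 0.45 and 0.22 at steady state, against -1.42 and -1.52 at 315 and 328 h, a change of 1.80 (limma adjusted p = 0.0297). RPL6B stood at 0.65, 1.22 and 0.70 at steady state, against -1.10 and -0.66 in early glucose, a change of 1.74 (adjusted p = 0.0457). The paralog RPS27B, at 0.86, 0.61 and 0.34 against 1.21 and 0.68, did not pass, and its steady state arrays overlapped the early ones. The count was 20 without 3AT40mM at 552 h, beside 3.3% of all genes, 20 without 574 h, beside 3.29%, 8 without no3AT2 at 328 h, beside 1.75%, and 0 without 315 h. It was 0 without any one of the no3AT2 steady state arrays or either 3AT40mM galactose array, and 1 without either no3AT galactose or either no3AT steady state array.

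In 3AT40mM glucose steady state had a single array, which was assumed to vary like the others. Against early glucose 0 members passed limma's test, beside 0 of all genes, and 24 members had an unadjusted p under 0.05, beside 6.88% of all genes. The members' median change was -0.78, or -1.38 without 552 h and -0.18 without 574 h. For 81 of 125 members the array at 937 h was below both early arrays, beside 22.7% of all genes. RPL4B had the lowest value of all 4783 genes there, -1.98, at -1.10 on the steady state array against 0.43 and 1.32 in early glucose. RPS19A was highest, with 1.64.

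**Figure D3:**
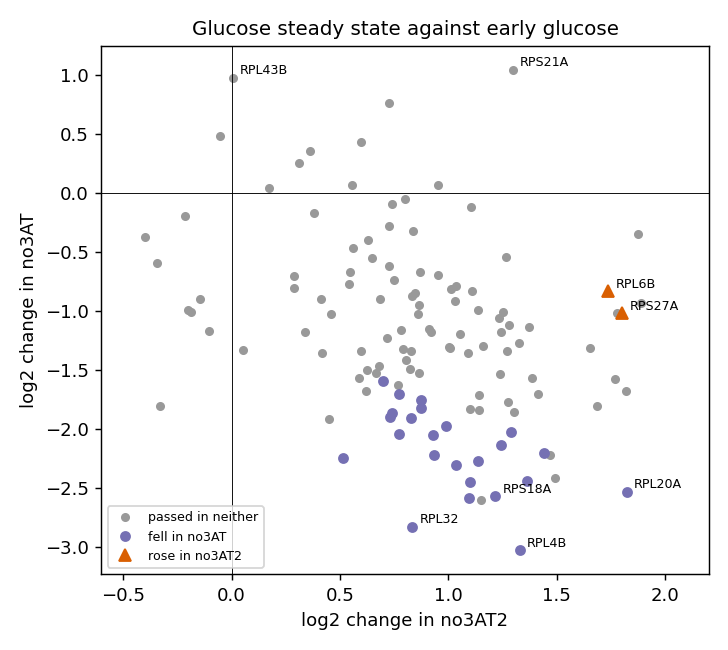
Log2 change of each tested ribosomal protein gene at glucose steady state against early glucose, in no3AT2 (x axis) and in no3AT (y axis). Purple points fell in no3AT (24 genes), orange triangles rose in no3AT2 (2 genes) and grey points passed in neither. Most points lie right of 0 and below 0, with medians of 0.86 in no3AT2 and -1.21 in no3AT, while RPS21A is above 0 in both.

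In early glucose against galactose no chemostat by itself gave a call. In 3AT40mM 0 of 124 members passed limma's test, beside 0 of all genes, with a median change of 0.65 and 118 members above 0. The members with an unadjusted p under 0.05 numbered 11, beside 9.81% of all genes. The early arrays differed widely. At 552 h 0 of 132 members were over 2-fold above the galactose mean, and at 574 h 88 of 128, beside 16.4% of all genes. Without the 552 h array 52 members rose, beside 10.3% of all genes, and the median was 1.21, from 1 early array. Without 574 h 0 passed and it was 0.07. RPL8B led with 1.26, at 0.31 and 2.63 in early glucose against 0.23 and 0.18 in galactose, and did not pass with both arrays.

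In no3AT 0 of 124 members passed in early glucose against galactose, beside 0 of all genes, with a median of 0.71 and 114 above 0. At an unadjusted p under 0.05 there were 36, beside 11.3% of all genes. For 68 of 119 members both early arrays were above both galactose arrays, beside 22.6% of all genes. The members over 2-fold above galactose numbered 24 of 125 at 344 h, beside 2.95% of all genes, and 59 of 130 at 353 h, beside 18.4%. Over 2-fold below it were 1 at 344 h and 3 at 353 h, beside 4.39% and 11.8%. RPL8A had the lowest change (-1.10) and did not pass. The highest was that of RPS0B (1.98), which has no value at 316 and 344 h, so that it is the difference of 1 early array at 353 h (3.56) and 1 galactose array at 305 h (1.58). Without the 344 h array 11 members rose and 2 fell, beside 2.97% and 0.505% of all genes. With quantile normalization the members' median was 0.0718, with 75 of 124 above 0.

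In no3AT2 0 of 124 members passed in early glucose against galactose, beside 0.523% of all genes that fell, with a median of -0.81 and 106 below 0. Without adjustment, 33 members had a p under 0.05, beside 24.1% of all genes. For 103 of 125 members both early arrays were below the single galactose array, beside 42.6% of all genes. The members over 2-fold below galactose numbered 70 of 128 at 315 h, beside 24.1% of all genes, and 23 of 125 at 328 h, beside 13%. Over 2-fold above it were 4 at 315 h and 1 at 328 h, beside 20.2% and 8.78%. RPL15A had the lowest change, -2.35, at -1.90 and -0.77 in early glucose against 1.02 in galactose. Its paralog RPL15B followed with -2.32, at -2.02 and -0.71 against 0.96. RPS27B had the highest change, 1.01, at 1.21 and 0.68 in early glucose against -0.07 in galactose. The count of falls was 15 without 3AT40mM at 552 or 574 h, beside 7.82% and 7.86% of all genes, and 3 without no3AT2 at 328 h, beside 2.08%.

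The difference between chemostats in that change was tested directly. For no3AT2 minus no3AT, 0 of 124 members passed limma's test, beside 0.105% of all genes that fell, and the members' median difference was -1.61, with 108 below 0. The members with an unadjusted p under 0.05 numbered 67, beside 13% of all genes. The smallest adjusted p, 0.0702, was shared by RPL20A and RPL4B. The count of members that were lower in no3AT2 was 16 without no3AT at 344 h, beside 1.47% of all genes, 11 and 12 without 3AT40mM at 552 and 574 h, beside 1.3% and 1.32%, and 5 without no3AT2 at 328 h, beside 0.735%. For 3AT40mM minus no3AT, 0 members passed, beside 0 of all genes, with a median of -0.14. Without 552 h that median was 0.49, and without 574 h -0.71. At an unadjusted p under 0.05 there were 3, beside 2.91% of all genes. Each difference uses the same no3AT arrays.

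At glucose steady state against galactose, 0 of 124 members passed limma's test in any single chemostat. Beside them stood 0 of all genes in 3AT40mM, 1.36% that fell and 0.0209% that rose in no3AT2, and 0.0836% that fell in no3AT. The members' median change was -0.12 in 3AT40mM (8 members with an unadjusted p under 0.05, beside 16% of all genes), 0.08 in no3AT2 (0 members, beside 15.8%) and -0.52 in no3AT (29 members, beside 15%). In no3AT 68 of 122 members had both steady state arrays below both galactose arrays, beside 23.4% of all genes. RPL4B was again lowest there, at -0.33 and 0.20 at steady state against 1.84 and 2.02 in galactose (change -2.00, adjusted p = 0.0751). The no3AT count of falls was 8 without 3AT40mM at 552 h and 7 without 574 h, beside 3.99% and 3.96% of all genes. The differences between chemostats gave 0 members, beside 0 of all genes. Member medians were 0.38 for 3AT40mM minus no3AT (2 unadjusted, beside 1.74% of all genes) and 0.62 for no3AT2 minus no3AT (8 unadjusted, beside 2.8%).

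The 5 later glucose arrays did not enter the fits above and were used only in the alternative that takes every glucose array before steady state as early glucose. In 3AT40mM 19 of 128 members were over 2-fold above the galactose mean at 592 h, 18 of 130 at 850 h and 6 of 131 at 878 h, beside 10.5%, 6.18% and 5.48% of all genes. None was over 2-fold below on these arrays, beside 19%, 5.17% and 2.41% of all genes. RPL10 was highest against galactose at 592 h (1.57), RPL3 at 850 h (1.42) and RPL43B at 878 h (1.23). At steady state, 937 h, 7 of 126 were over 2-fold above and 7 below, beside 16.2% and 10% of all genes. In no3AT 52 of 133 members were over 2-fold below galactose at 385 h and 33 of 134 at 478 h, beside 11% and 11.4%. At steady state there they were 40 of 125 at 507 h and 23 of 134 at 526 h, beside 13.5% and 9.64%. Over 2-fold above galactose were 4 members at 385 h, 2 at 478 h, 0 at 507 h and 3 at 526 h, beside 9.5%, 8.06%, 3.21% and 7.29% of all genes. On the no3AT2 steady state arrays 6 of 129, 1 of 129 and 3 of 126 members were over 2-fold above galactose, beside 9.31%, 3.02% and 10.3%, and 1, 0 and 5 below, beside 16.6%, 11.2% and 14.5%. RPL34B had the lowest value against galactose at 385 h (-2.48) and RPL43B the highest (2.27).

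The stalk proteins recruit the elongation factors to the large subunit. P0 anchors the stalk, and the acidic P1 and P2 proteins form its arms. RPP0, which encodes P0, stood in 3AT40mM at -0.34 and 0.13 in galactose, 0.21 and 1.40 in early glucose, 0.62, 0.95 and 0.78 later and 0.39 at steady state. In no3AT2 it stood at 0.77 in galactose, -0.81 and -0.27 in early glucose and 1.01, 0.91 and 0.70 at steady state. In no3AT it stood at 1.45 and 1.51 in galactose, 1.80 and 3.60 in early glucose, 0.05 and 0.67 later and 0.83 and 1.17 at steady state. RPP0 was highest at 574 h in 3AT40mM and at 353 h in no3AT and lowest at 315 h in no3AT2, as were the members' medians.

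RPP1B was the one stalk gene that fell in no3AT at steady state against early glucose, at 0.63 and 0.89 against 2.19 and 2.52 (change -1.60, SE 0.38, adjusted p = 0.0495). RPP0 had -1.70 (adjusted p = 0.1305), RPP2B -1.53 (adjusted p = 0.1013) and RPP1A -1.49 (adjusted p = 0.0938). RPP2A had values on 12 arrays and was not tested. In no3AT2 early glucose the acidic stalk genes stood above the members' medians of -0.39 and 0.03, RPP1A at 0.11 and 0.21, RPP1B at 0.31 and 0.44 and RPP2B at 0.32 and 0.65.

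Among single-copy genes RPL3 varied most over the 22 arrays, with an SD of 1.22 and values between -2.44 (no3AT2 315 h) and 3.38 (no3AT 353 h). In 3AT40mM it stood at -0.13 and 0.03 in galactose, 0.17 and 1.64 in early glucose, 1.13, 1.37 and -0.82 later and -0.48 at steady state. In no3AT2 it stood at 0.52 in galactose, -2.44 and -0.96 in early glucose and -0.04, 0.47 and -1.14 at steady state. In no3AT it stood at 1.29 and 1.45 in galactose, 1.69 and 3.38 in early glucose, 0.09 and 1.22 later and 0.34 and 0.28 at steady state. RPL3 did not pass in any comparison.

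RPL5, which carries the 5S RNA into the large subunit, had its lowest value (-0.87) and its highest (3.68) on the same arrays as RPL3. RPL32 spanned -0.11 to 3.61, again from no3AT2 315 h to no3AT 353 h.

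Members were also set against each other. The correlation of a member with the median of the other members over arrays had a median of 0.83. Of the 121 members with 20 or more arrays, 87 had a correlation above 0.7 and 1, RPL43B with -0.14, below 0. RPL24A had the highest, 0.95. At the low end were RPL22B (0.06), RPL30 (0.14), RPS21A (0.18) and, on 18 arrays each, RPS19A (0.04) and RPS30A (-0.56). These points share arrays and a common reference, so the values describe this set of arrays only.

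RPS30A, which encodes a small subunit protein, stood at -1.74 at 3AT40mM 574 h, where 99.2% of members were above 0. Its paralog RPS30B was at 1.45 on that array. RPS12 correlated at -0.25 on 17 arrays.

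Paralog pairs were compared over the arrays where both copies had a value, for the 54 pairs with 15 or more such arrays. The root mean square difference of the A and B copies had a median of 0.64 on the log2 scale, with a range of 0.21 to 1.36. The correlation of A and B over arrays had a median of 0.69, with 26 pairs above 0.7 and 6 below 0. Over members with 20 or more arrays, the 46 paralog couples had a median correlation of 0.71 and the 7214 other couples of 0.62. The sequences of the probes were not used here, so signal shared between near-identical copies by cross-hybridisation was not tested, and every A and B value of such a pair is uncertain in that respect.

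The closest pair was RPL24, of a bridge between the subunits, with a difference of 0.21 and a correlation of 0.97. RPL24A stood at 2.01 and 3.11 in no3AT early glucose and RPL24B at 1.55 and 2.74, and at no3AT2 315 h they stood at -0.82 and -0.96. RPL35 (0.24, correlation 0.91), RPS26 (0.25, 0.94), RPL6 (0.26, 0.91) and RPL12 (0.27, 0.94) came next. RPL35 lies at the exit of the nascent chain tunnel, and RPS26 at the messenger exit of the small subunit.

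The most distant pair was RPL31, with a difference of 1.36 and a correlation of -0.14 over 16 arrays. RPL31A stood at 3.55 and 3.16 in no3AT early glucose and RPL31B at 0.65 and 1.01. At 3AT40mM 937 h the order was turned, with RPL31A at -0.11 and RPL31B at 1.46. RPL31A fell in no3AT at steady state against early glucose, with 0.69 and 1.13 against 3.55 and 3.16 (change -2.44, SE 0.40, adjusted p = 0.0090). RPL31B had no value on the no3AT2 arrays and was not tested.

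RPL41, the shortest ribosomal protein, had A above B on 22 of 22 arrays, by 1.20 on average (difference 1.32, correlation 0.41). RPL41A stood at 2.12 and 1.97 in no3AT early glucose and RPL41B at -0.20 and -0.48. A ratio to the pool does not compare the abundance of the copies, only how each differed from its own level in the pool. RPL43A was above RPL43B on 20 of 21 arrays (difference 1.26, correlation -0.10). At no3AT 353 h RPL43A stood at 2.69 and RPL43B at -1.07, and at 385 h RPL43A stood at 0.40 and RPL43B at 1.79. In neighbour-corrected values RPL43A was above RPL43B on 21 of 21 arrays, with a difference of 0.91 and a correlation of 0.34.

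RPL23, of the large subunit, had a difference of 1.15 (correlation 0.24), with A above B on 20 of 22 arrays. RPL23A fell in no3AT at steady state against early glucose, at 0.51 and 1.20 against 2.49 and 2.63 (change -1.71, SE 0.41, adjusted p = 0.0490). RPL23B, at 0.07 and 0.80 against 0.15 and 0.02, had a change of 0.35 and did not pass.

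**Figure D4:**
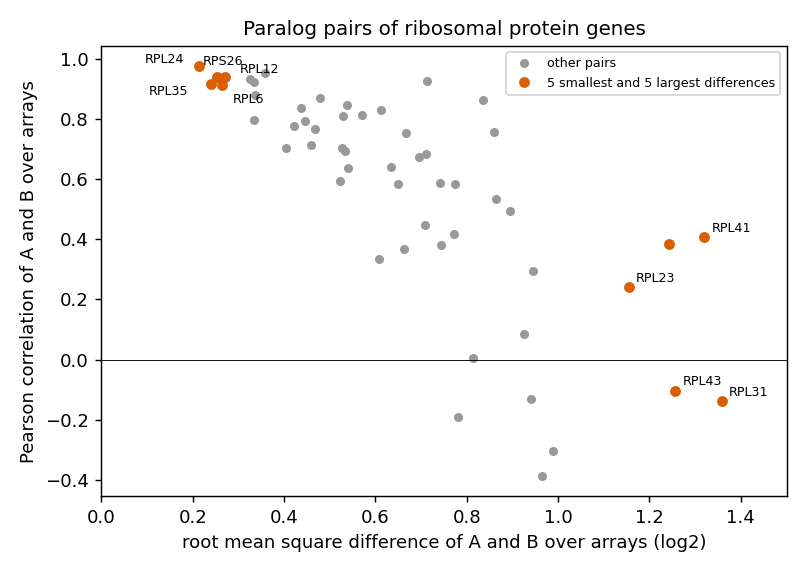
Correlation of the A and B copies over arrays (y axis) against the root mean square difference of A and B (x axis, log2), for the 54 paralog pairs with 15 or more shared arrays. The 5 smallest and 5 largest differences are in orange. RPL24 (0.21, correlation 0.97) stands at upper left and RPL31 (1.36, correlation -0.14) at lower right.

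A and B copies fell in similar numbers in the comparison with the most calls. At no3AT steady state against early glucose, 10 of 53 tested A copies and 11 of 55 tested B copies fell, beside 1.02% of all genes. Their median changes were -1.18 and -1.30. As given above, no member fell with quantile normalization, and the count moved with single arrays. Of the 16 tested genes without a letter, 3 fell, RPL32 and RPS13 among them, with a median of -1.27 over the group. RPL37A (-2.14) and RPL37B (-1.87) both fell. For RPL40, which encodes a ribosomal protein fused to ubiquitin, RPL40A fell (0.06 and -0.12 at steady state against 2.09 and 2.39, change -2.27, adjusted p = 0.0103), while RPL40B had a change of 0.06 and did not pass. Differences between copies were not tested.

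Genes outside the ribosome with related roles were set beside the members. The lists were elongation factors, ribosome biogenesis factors, regulators of ribosomal protein genes, dedicated chaperones that escort new ribosomal proteins, mitochondrial ribosomal proteins and general stress genes. The median of the 10 elongation factor genes was 1.10 and 1.92 in no3AT early glucose and -0.99 and -0.35 in no3AT2 early glucose. At no3AT steady state against early glucose 1 of 10 fell, EFB1, which encodes the exchange factor of elongation factor 1 (-2.42, adjusted p = 0.0317). In no3AT2 the same comparison had 2 of 10 that rose, TEF1 (2.36, adjusted p = 0.0457) and TEF2 (2.28, adjusted p = 0.0065), which encode the same protein and whose probes may not tell them apart.

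The 30 tested ribosome biogenesis genes had median changes of -0.29 in no3AT and 0.36 in no3AT2 at steady state against early glucose, and none passed in either. Over 3 chemostats 1 of them fell at glucose steady state against galactose, MAK16, a large subunit assembly factor (-1.18, adjusted p = 0.0167). The 42 tested mitochondrial ribosomal protein genes had medians of -0.21 in no3AT and -0.14 in no3AT2 at steady state against early glucose, and none passed. At glucose steady state against galactose over 3 chemostats 1 of the 42 rose and 9 fell, beside 4.54% and 13% of all genes, with a median of 0.02.

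Of 10 tested regulators, 2 rose and 1 fell at glucose steady state against galactose over 3 chemostats, beside 4.54% and 13% of all genes. SCH9, a kinase of the TOR pathway, fell by 1.47 on the log2 scale (adjusted p = 0.0042). TOR1 rose by 1.20 (adjusted p = 0.0201) and TPK2, a catalytic subunit of protein kinase A, by 0.98 (adjusted p = 0.0412). The 6 tested chaperones gave no call, with SQT1, the chaperone of RPL10's protein, lowest at -0.78. Of 21 tested general stress genes 1 rose there, TSL1, of trehalose synthesis (0.87, adjusted p = 0.0427). The medians of the stress list stayed between -0.75 and 0.08 on all arrays.

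**Figure D5:**
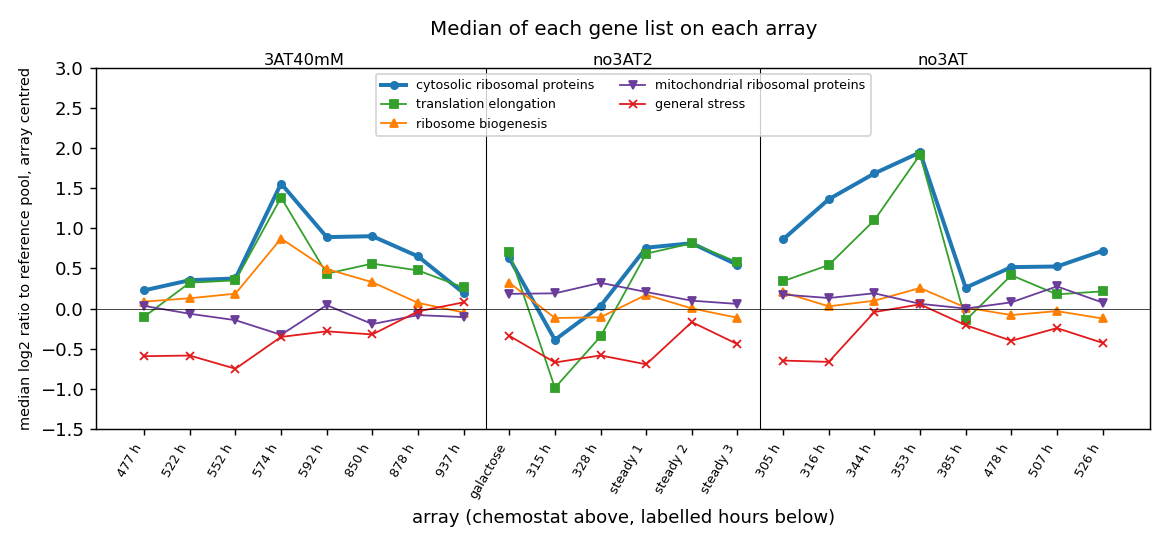
Median log2 ratio to the reference pool of 5 gene lists on each of the 22 arrays. Lines join arrays of one chemostat only to guide the eye. The ribosomal protein and elongation factor medians share their peaks at 3AT40mM 574 h (1.56 and 1.38) and no3AT 353 h (1.94 and 1.92) and their low point at no3AT2 315 h (-0.39 and -0.99).

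The genes outside the list whose values were most like the members' median were named by Pearson correlation over 22 arrays, among 4449 genes with 20 or more values. They were VPS45, of vesicle fusion (0.91), GCN4, the activator of amino acid synthesis genes (0.90), MET32, of sulfur amino acid control (0.89), FZO1, of mitochondrial fusion (0.89), and SES1, seryl-tRNA synthetase (0.88). GCN4 stood at 1.38 and 1.68 in no3AT early glucose and at -1.55 and -0.40 in no3AT2 early glucose. FZO1 and SES1 lie 2 rows from RPS6B and RPS11A in the deposited order, and VPS45 lies 8 rows from RPL28. A member's value correlated with the median of the rows beside it by -0.18 to 0.74 over the arrays. When that median was subtracted, the members' median on an array moved by at most 0.21, at no3AT 353 h, where it was 1.73.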

How the data were processed

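RNA of yeast cultures was measured on 22 two-colour arrays, and the deposited table holds 1 column of log ratios per array with 6281 rows and no intensities. The authors' values were read as deposited log2 ratios of Cy5 (culture) over Cy3 (reference pool), per the labels, with the base assumed. No header or label records a background correction, normalization or spot filter, and depth is unknown, so the number of arrays limits the precision. Of the row IDs, 5763 matched a gene of the R64 annotation and 518 did not, and rows of one gene were averaged. Array medians as deposited lay between -0.15 and 0.07, and each array was centred on its median. An array lacked 138 to 1587 values.

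Changes were fitted with limma 3.58.1 in R 4.3.3, over 3 chemostats on the 9 means of chemostat and phase with the chemostat as a block (4 residual and 10.4 prior degrees of freedom), and within chemostats on 17 arrays with 1 mean per chemostat and phase (8 and 11.4). Each limma p is two-sided, with Benjamini-Hochberg adjustment across 4783 genes and a threshold of 0.05. The fits were also run on simulated data in which a gene changed by the same size in every chemostat. Changes that differ between chemostats were not simulated, and the outcome is not reported here. Members named are up to 5 that passed each way per comparison, the 5 largest changes of one sign in all 3 chemostats, the stalk genes, the 5 closest and 5 most distant pairs, the highest and lowest member per array, 4 single-copy genes with the largest SD, and the 5 genes most like the members' median. Some items that this rule selects are not reported here. Others were named after their values were seen. The members and lists were chosen with earlier results of these data known. Alternatives were other centrings, filters, row choices, moderation, units, definitions of early glucose, no block, subtraction of the median of nearby rows, 10 before and 10 after in steps of 2 (neighbour-corrected), and leaving out each chemostat or array.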

Additional observations from a re-analysis of the deposited data

Results flagged for a closer look

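The change of the per-array median of the ribosomal protein genes had opposite directions in no3AT2 and in the other chemostats, and these differences of medians were not tested. In early glucose against galactose it was -0.81 in no3AT2 and 0.70 in no3AT, a difference of -1.51. It was 0.68 in 3AT40mM, which is 1.48 above no3AT2. In 3AT40mM the early medians were 0.37 at 552 h and 1.56 at 574 h, against 0.23 and 0.35 in galactose. The galactose steady state of no3AT2 had 1 array. At glucose steady state against early glucose the change was 0.88 in no3AT2 and -1.19 in no3AT, a difference of 2.08. It was -0.77 in 3AT40mM, which is -1.66 from no3AT2. The no3AT2 arrays also differ in carrying polyA RNA, and the part of this in the result cannot be told apart from the chemostat. The test by gene of the first difference gave 0 of 124 members.

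The later glucose arrays of 3AT40mM, which were used only in the alternative that takes every glucose array before steady state as early glucose, had medians of 0.89 at 592 h, 0.90 at 850 h and 0.65 at 878 h, all above the highest galactose median of that chemostat, 0.35. At 937 h, labelled steady state, the median was 0.19.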

How the results depend on the processing

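The fit over 3 chemostats compares phases within each chemostat through its block. Over all alternatives other than leaving out an array, 145 of 175 counts of called members stayed within 1.5 times. Most of the 16 counts were 0 to begin with, and 0 against 0 was taken as within 1.5 times. The 145 therefore does not show that the counts above 0 were stable. Of 175 median changes, 165 moved by less than the spread between arrays or chemostats. Over 3 chemostats that spread was the SD over the chemostats. It was 0.86 in early glucose against galactose, 0.30 at steady state against galactose and 1.10 at steady state against early glucose. Each of these SDs was larger than the median change it was set beside, so a lost change would not count as moved. At glucose steady state against early glucose the no3AT count (24) was 13 with values as deposited, beside 0.502% of all genes that fell. Neighbour-corrected it was 9, beside 0.209%. It was 0 with quantile normalization and with every array before steady state as early glucose, with medians of -0.70 and -0.55. In no3AT2 the same count (2) was 1 as deposited, 7 with quantile normalization, 5 neighbour-corrected and 5 with a value on every array. Beside these stood 0.439%, 0.753%, 1.09% and 1.19% of all genes that rose. The count was 0 with every array before steady state. It rose by most with the lowest hour alone as early glucose, which leaves 1 early array in each chemostat. Without 328 h the no3AT2 median change was 1.12, the highest when 1 array was left out. In early glucose against galactose the no3AT2 count (0) was 7 neighbour-corrected, 1 with a value on every array and 48 with the lowest hour, 47 of them falls (beside 16.3% of all genes that fell). The count for its difference from no3AT (0) was 29 with the lowest hour, 28 of them lower (beside 4.15% of all genes), with a median (-1.61) of -0.68 under quantile normalization and -0.83 with every early array. The median of no3AT in that comparison (0.71) was 0.0718 with quantile normalization and 0.0621 with every early array, and the difference of 3AT40mM from no3AT (-0.14) was 0.48 and 0.50 there. For 3AT40mM the lowest hour gave 0.0718 in early glucose against galactose and -0.18 at steady state against early glucose. At glucose steady state against galactose over 3 chemostats the count (1) was 5 with quantile normalization, 2 that rose and 3 that fell. Beside them stood 10.3% and 15.3% of all genes. With every early array the count was 4, 2 that rose and 2 that fell, beside 8.63% and 16.3%. It was 0 neighbour-corrected, with a value on every array, with the lowest hour, without a block, and without 3AT40mM or no3AT, and 19 without no3AT2, 3 that rose and 16 that fell (beside 8.49% and 10.9% of all genes). Without no3AT2 the shared counts were 1 in early glucose against galactose, a rise (beside 0.646% of all genes), and 44 at steady state against early glucose. Those 44 were all falls (beside 1.88% of all genes). At steady state against galactose 3AT40mM had 1 fall with quantile normalization, beside 0.794% of all genes. In no3AT there was 1 fall with a value on every array, beside 0.336%. The no3AT falls were most numerous with the lowest hour alone as early glucose, which leaves 1 early array in each chemostat. The 3AT40mM count moved from 0 there as well, so a count of 0 in these chemostats was not stable. Neighbour-corrected values turned RPS21B at steady state against galactose to 0.10 and, against early glucose, RPL43B to -0.0835 and RPS22B to -0.0099. Leaving out each array gave counts of 0 to 53 in no3AT and 0 to 20 in no3AT2 at steady state against early glucose, and of 0 to 52, 0 to 13 and 0 to 15 in early glucose against galactose in 3AT40mM, no3AT and no3AT2, with 3AT40mM medians of 0.0748 to 1.21 there and -1.38 to -0.18 at steady state against early glucose. It gave 0 to 16 for the difference of no3AT2 from no3AT, medians of -0.71 to 0.49 for that of 3AT40mM, 0 to 8 for no3AT at steady state against galactose, and 0 to 2 over 3 chemostats in both comparisons with galactose. The shares of all genes beside the highest of these counts are given with each result above. The causes were not tested. All 44 alternative medians per array stayed within the pooled SD between arrays of one chemostat and phase, 0.31. Neighbour-corrected, the difference of the RPL43 copies was 0.91 in place of 1.26 and their correlation 0.34 in place of -0.10. Each phase of a chemostat has 1 to 3 arrays.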
